A study of Mus musculus with 9 samples.

Results

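DNA repair and damage checkpoint genes were followed in sorted mouse myeloid progenitors of 2 leukaemia models and of wild type mice. The group was a list of 36 genes named by symbol. A probe set with exactly that symbol was found for 35 of them, and Xrcc2, a gene of homologous recombination, was not analysed here. Where a gene had several probe sets, that of highest mean over the 9 arrays stood for it. All 35 measured genes passed the filter on low values, out of 12866 genes tested and 18194 genes on the arrays. They comprised 9 genes of homologous recombination, 5 of the Fanconi anaemia pathway, 2 of mismatch repair, 6 of damage sensing and checkpoint signalling, 4 of end joining, 5 of base excision and single-strand break repair and 4 of nucleotide excision repair.

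Cells repair DNA by routes that differ in the lesion they recognise. A double-strand break can be copied back from the sister chromatid by homologous recombination, which works mainly in S and G2 phase, or can be rejoined directly by end joining, which starts when the Ku heterodimer binds the broken ends. Crosslinks are opened by the Fanconi anaemia pathway, damaged single bases are cut out by base excision, bulky lesions such as those made by ultraviolet light by nucleotide excision, and copying errors by mismatch repair. The kinases Atm and Atr report breaks and stalled forks to the checkpoint kinases Chek2 and Chek1. Blood-forming cells depend on these routes, and inherited loss of Fanconi genes causes bone marrow failure.

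There were 3 arrays from K/L leukemic mice, which carry bi-allelic Cebpa mutations, 3 from Sox4 overexpressing leukemic mice and 3 from wild type mice, all of strain C57/BL6 and 2 to 4 months old. Cebpa encodes a transcription factor of granulocyte development, and Sox4 encodes an HMG-box transcription factor. The tissue label is blood, and total RNA came from a sorted fraction called FrII, whose cells lack lineage markers and Sca-1, carry c-Kit and have low or clear Mac1. The protocol adds CD45.1-negative and CD45.2-positive for every sample, while the sample names give that step for the leukaemic samples only. How Sox4 was overexpressed is not given in the sources used here. The titles speak of mice and the descriptions of 1 numbered mouse per array, and nothing says whether leukaemias arose independently, so the p-values speak only for the spread seen among these arrays, which may be partly technical.

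The labels were checked first on the arrays. Sox4 lay at log2 intensities of 10.52 to 10.87 on the K/L arrays, 9.61 to 9.87 on the Sox4 arrays and 3.81 to 3.97 on the wild type arrays. It was thus high in both leukaemias and highest in K/L, so it does not show which leukaemia is which. Kit, the gene of the c-Kit gate, lay between 9.10 and 9.36 in all 3 groups. Ptprc, which encodes the CD45 of the gate, read 10.75 to 11.00 on the K/L arrays and 10.74 to 10.92 on the Sox4 arrays, all below the wild type arrays at 11.26 to 11.36. It was called lower in K/L, at -0.44 ± 0.10 (limma adjusted p = 0.00476), and in Sox4, at -0.49 ± 0.10 (limma adjusted p = 0.00249). Itgam, which encodes the Mac1 chain, lay at 3.70 to 4.02 on the K/L arrays, 3.97 to 4.47 on the Sox4 arrays and 4.76 to 4.99 on the wild type arrays. Only 2 arrays, both wild type, had Itgam above the 40th percentile of the array. Ly6a, the gene of Sca-1, had no reading under that symbol. Wild type array 3 stood apart. It correlated with the other wild type arrays at 0.979 and 0.977 over tested genes and differed from them over 2-fold at 404 and 500 genes, against 18 to 68 genes for the other pairs of arrays of 1 group. Of the 35 repair genes, 21 were highest on that array among the wild type arrays (60%), against 34.6% of all tested genes. The 3' over 5' ratio of the Gapdh control, a reading of RNA quality, also moved with the groups. It was 1.93 to 2.01 on the K/L arrays, 2.22 to 2.44 on the Sox4 arrays and 2.68 to 2.91 on the wild type arrays. For actin, the other such control, the K/L arrays gave 0.866 to 0.913 and the Sox4 arrays 0.881 to 0.915, which overlap each other and the 0.885 to 0.976 of the wild type arrays. The part of the Gapdh ratio in the results that follow was not tested.

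In K/L cells, 12 of the 35 repair genes were higher and 3 lower than in wild type cells. The test was limma's moderated test on log2 intensities, in 1 fit of all 9 arrays with Benjamini-Hochberg adjustment over the 12866 genes at 0.05. These 15 genes were 42.9% of the list, where 50.3% of all tested genes were called, 28.7% higher and 21.6% lower. In Sox4 cells, 18 were higher and 6 lower than in wild type cells. These 24 genes were 68.6% of the list, where 47.7% of all tested genes were called, 26.6% higher and 21.1% lower. Between the leukaemias, 4 genes were higher and 5 lower in K/L than in Sox4 cells, 25.7% of the list against 28.8% of all tested genes, of which 14.7% were higher and 14.1% lower. The comparisons with wild type share the 3 wild type arrays, so their calls are not independent of each other.

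Most differences were small. The median log2 change of the 35 genes was 0.12 in K/L against wild type and 0.32 in Sox4 against wild type, beside medians of 0.05 and 0.03 over all tested genes. Called differences of at least 2-fold numbered 1 of 35 for K/L, against 16.6% of all tested genes, and 4 of 35 for Sox4, against 15.5%. The 4 include Lig4, which was dim on the Sox4 arrays. Between K/L and Sox4 they numbered 2 of 35, against 9.09%. The deposited scale mattered for the split of the K/L calls. Of the K/L calls against wild type, 80% were higher as deposited, 92.9% after quantile normalisation (13 higher, 1 lower) and 93.3% after each array was centred on its median (14 higher, 1 lower). Of all genes called in that comparison, 57%, 62.2% and 65.9% were higher under the same settings. Of the calls between K/L and Sox4, 44.4% were higher in K/L as deposited and 55.6% after median centring (5 higher, 4 lower). Of all genes called between them, 51.1% and 63.4% were higher in K/L. Centring moved the median change of all genes in K/L against wild type to 0.15.

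**Figure D1:**
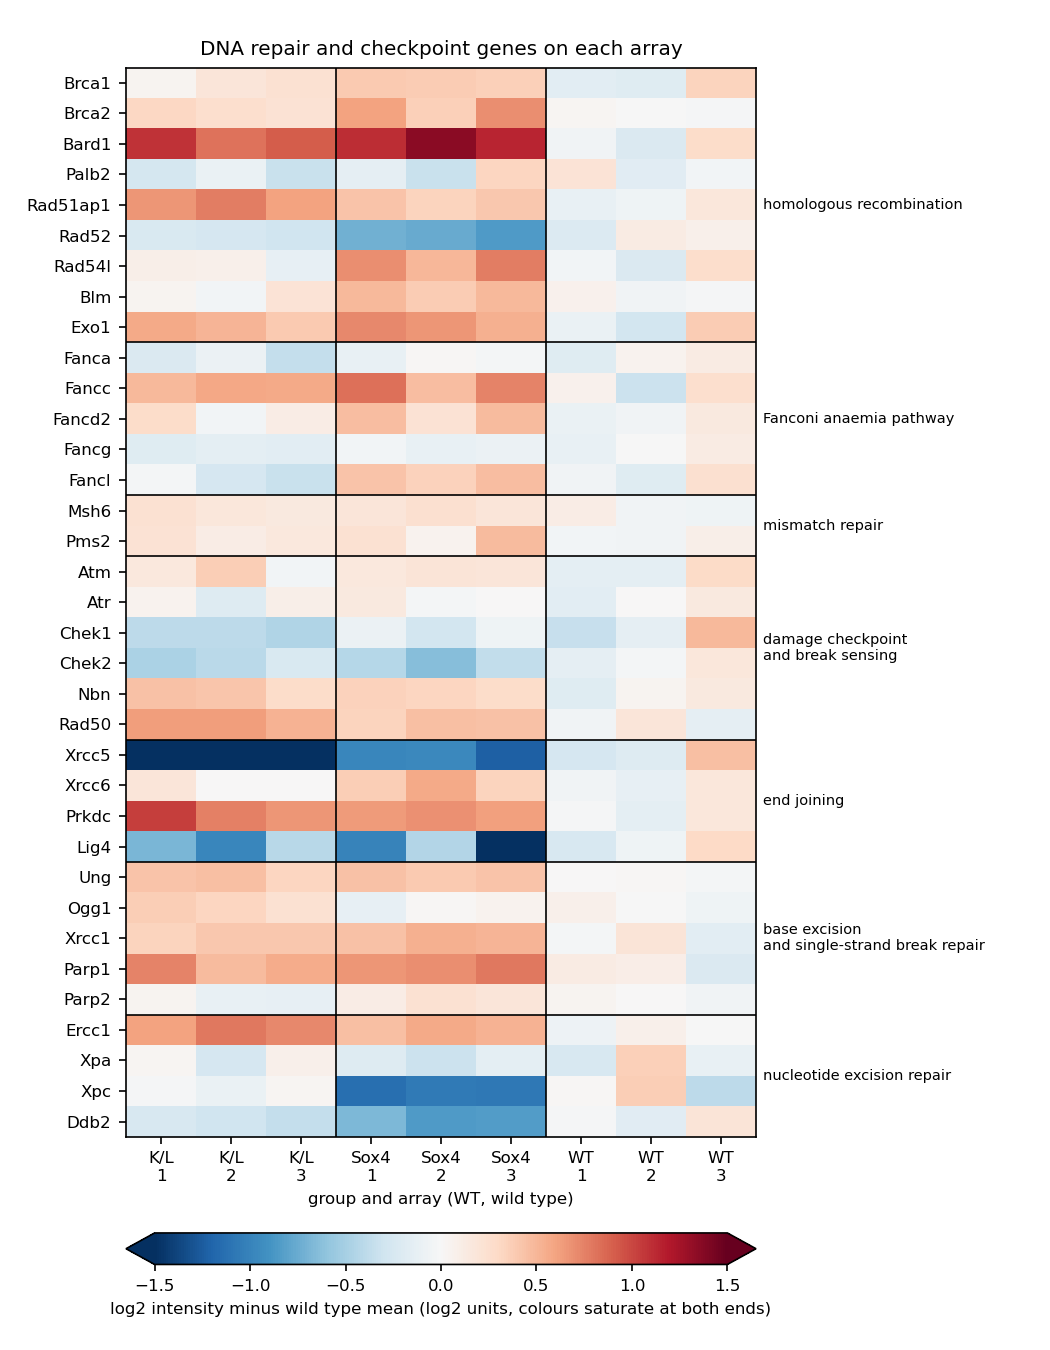
Log2 intensity of each of the 35 repair and checkpoint genes on each of the 9 arrays, minus the mean of the 3 wild type arrays for that gene (colour, in log2 units). Rows are genes in blocks by role and columns are arrays, K/L, Sox4 and wild type (WT) from left to right. Bard1 is high and Xrcc5 is low on all 6 leukaemic arrays, Xpc is low on the 3 Sox4 arrays, and wild type array 3 is the highest wild type array for 21 of the 35 genes.

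**Figure D2:**
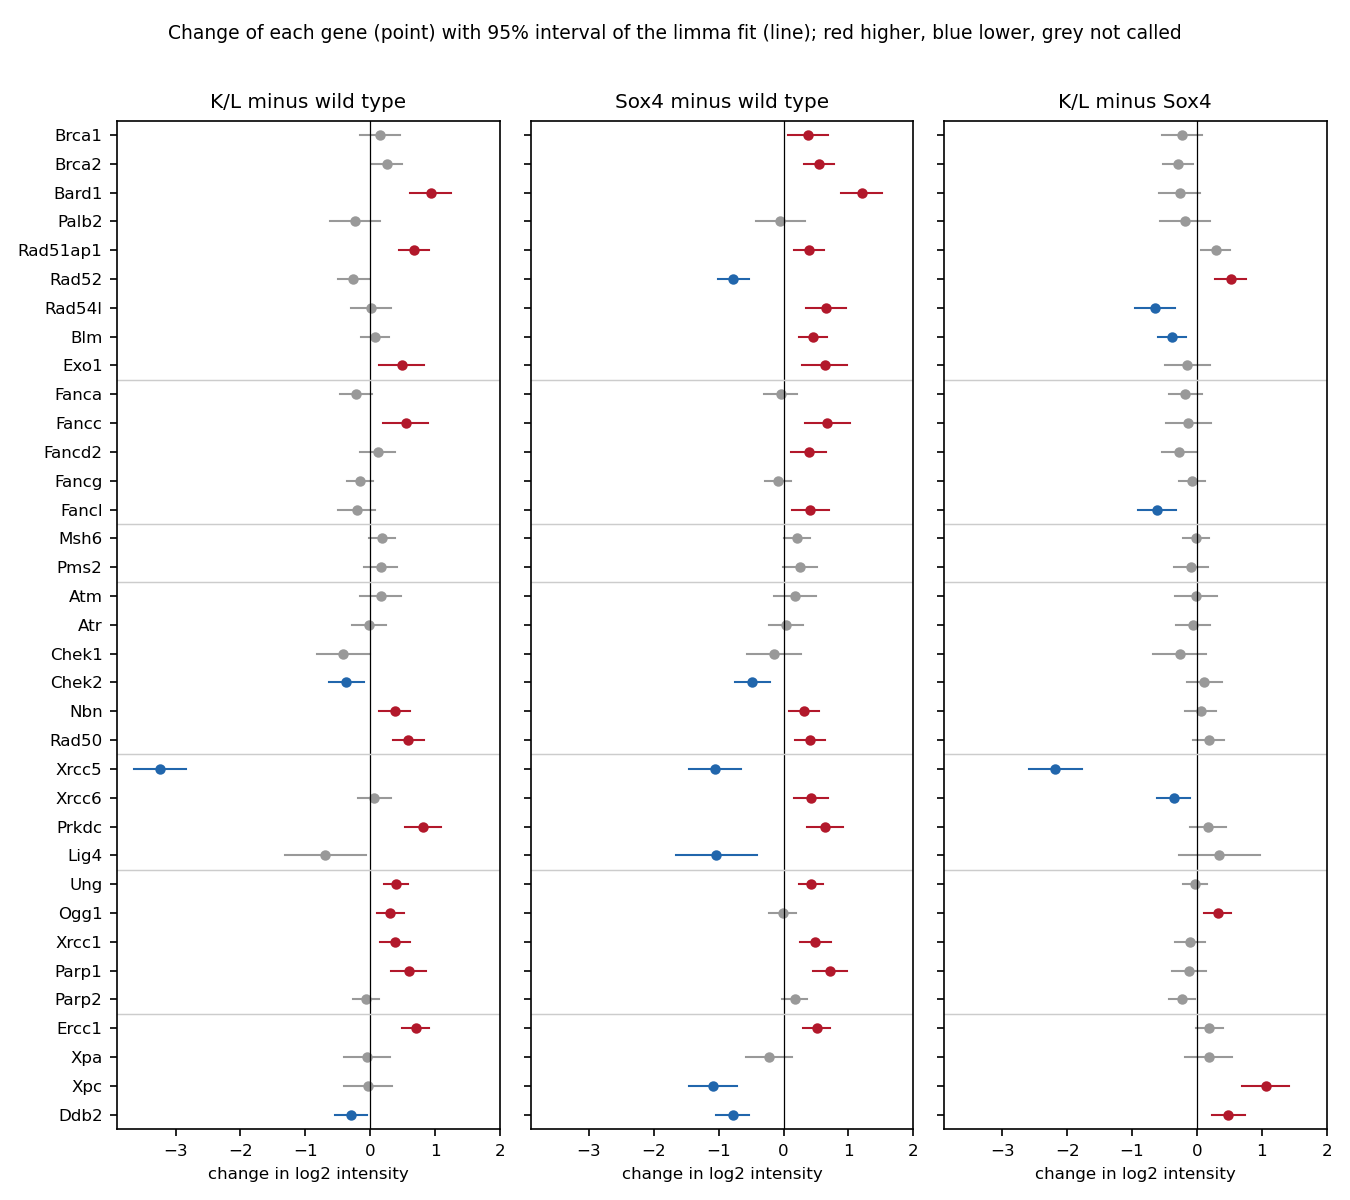
Change in log2 intensity of each gene in each comparison (point, x axis) with the 95% interval of the fit (line), genes in rows by role. Red marks genes called higher, blue genes called lower and grey genes not called. Xrcc5 has the fitted change farthest from 0 in K/L against wild type (-3.24, from K/L values below the 40th percentile of the array), and 18 genes are called higher in Sox4 against wild type.

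The sequence just before the transcription start is shown for the genes that passed the test in the same direction in both leukaemias, taken in order of their smallest adjusted p, to a limit of 4. Genes with no entry, or whose window overlapped another gene, were passed over. Each run is the 250 bases upstream of the RefSeq gene start in build GRCm38.p6, read 5′ to 3′ along the gene, with motifs in capitals. The motifs searched on both strands were E2F sites (TTTCGCGC, TTTGGCGC or TTTCCCGC), the CCAAT box (CCAAT, or ATTGG when read on the other strand) and the cell cycle homology region, called CHR (TTTGAA or TTCGAA). The Xrcc5 window is chr1:72307171-72307420 on the plus strand, that of Bard1 chr1:71102973-71103222 on the minus strand, that of Ercc1 chr7:19344821-19345070 on the plus strand and that of Rad51ap1 chr6:126939588-126939837 on the minus strand.
Xrcc5: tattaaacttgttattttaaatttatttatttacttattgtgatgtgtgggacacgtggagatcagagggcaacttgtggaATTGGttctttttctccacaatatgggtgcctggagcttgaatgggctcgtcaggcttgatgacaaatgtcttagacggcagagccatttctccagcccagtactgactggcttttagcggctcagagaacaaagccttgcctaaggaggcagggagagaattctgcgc
Bard1: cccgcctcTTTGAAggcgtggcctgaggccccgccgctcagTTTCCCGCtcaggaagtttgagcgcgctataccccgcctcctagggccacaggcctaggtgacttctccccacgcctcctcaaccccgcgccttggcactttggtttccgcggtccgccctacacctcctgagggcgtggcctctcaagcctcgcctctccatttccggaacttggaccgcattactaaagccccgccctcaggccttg
Ercc1: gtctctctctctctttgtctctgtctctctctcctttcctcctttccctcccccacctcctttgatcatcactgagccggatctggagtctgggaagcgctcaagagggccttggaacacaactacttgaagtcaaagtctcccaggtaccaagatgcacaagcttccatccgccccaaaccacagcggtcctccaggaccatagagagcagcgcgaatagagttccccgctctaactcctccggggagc
Rad51ap1: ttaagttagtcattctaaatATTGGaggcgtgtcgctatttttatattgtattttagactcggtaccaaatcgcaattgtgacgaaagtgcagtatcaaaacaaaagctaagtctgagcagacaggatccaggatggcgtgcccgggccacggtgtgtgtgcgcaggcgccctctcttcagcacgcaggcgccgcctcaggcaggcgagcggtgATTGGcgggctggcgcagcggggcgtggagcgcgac
The Bard1 window held an E2F site and a CHR, the Rad51ap1 window a pair of reversed CCAAT boxes, the Xrcc5 window a single reversed CCAAT box and the Ercc1 window none of these letters. RefSeq windows were matched for 28 of the 35 genes. An E2F site was found in 5 of those 28 (17.9%), Brca2, Bard1, Fancg, Chek2 and Xrcc6, against 1.59% of 27025 windows of all genes. The CCAAT box was found in 14 (50%), against 34.5% of all windows, and the CHR in 2 (7.14%), Bard1 and Atr, against 17.4%. A match describes these letters and is not a measured binding site.

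Homologous recombination genes were mostly higher in Sox4 cells. Of the 9, 7 were higher and 1 lower in Sox4 than in wild type, and 3 were higher and 0 lower in K/L than in wild type. That is 77.8% higher in Sox4, against 26.6% of all genes tested, and 33.3% higher in K/L, against 28.7%. Bard1, the obligate partner of Brca1 in its ubiquitin ligase, had the largest increase of the 35 in both comparisons. Its log2 intensity was 7.80, 7.53 and 7.62 on the K/L arrays, 7.83, 8.08 and 7.86 on the Sox4 arrays and 6.66, 6.50 and 6.99 on the wild type arrays. All 6 leukaemic arrays lay above all wild type arrays. The change was 0.94 ± 0.14 in K/L (SE, n = 3 arrays a group, limma adjusted p = 0.000412) and 1.20 ± 0.14 in Sox4 (limma adjusted p = 8.58e-05), which is 1.91-fold and 2.30-fold. Bard1 is read by 1 probe set, and it kept both calls under every alternative run.

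Brca1 itself moved much less. It lay at 9.06, 9.20 and 9.24 in K/L, 9.41, 9.40 and 9.38 in Sox4 and 8.86, 8.84 and 9.35 in wild type. Wild type array 3 stood with the leukaemic arrays and apart from the other wild type arrays. The change was 0.15 ± 0.14 in K/L (limma adjusted p = 0.396) and 0.38 ± 0.14 in Sox4 (limma adjusted p = 0.0456). The Sox4 call was lost without any 1 of 8 arrays, all but wild type array 3, with an adjusted p of 0.0576 to 0.141. Without wild type array 3, Brca1 was called in K/L too, at 0.32 (limma adjusted p = 0.0135). The 2 other tested probe sets of Brca1 were both called higher in Sox4 than in wild type, by 0.63 and 0.53, in a separate limma fit over 24036 probe sets that gave all such second readings.

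Brca2, a tumour suppressor needed for homologous recombination, lay at 8.70, 8.64 and 8.60 in K/L, 8.99, 8.74 and 9.08 in Sox4 and 8.41, 8.37 and 8.37 in wild type. The 3 groups did not overlap. The change was 0.55 ± 0.10 in Sox4 (limma adjusted p = 0.00164) and 0.26 ± 0.10 in K/L, which did not pass the test (limma adjusted p = 0.0583). That change passed without Sox4 array 2 (0.0364), after quantile normalisation (0.0353) and after median centring (0.0154). Palb2, the bridge between Brca1 and Brca2, overlapped between all groups, at -0.23 ± 0.17 in K/L and -0.05 ± 0.17 in Sox4. Rad51ap1, which stimulates strand invasion, rose by 0.68 ± 0.10 in K/L (limma adjusted p = 0.000402) and by 0.39 ± 0.10 in Sox4 (limma adjusted p = 0.0102). All 4 of its probe sets rose in K/L, by 0.57 to 0.91, and 3 of the 4 rose in Sox4. Exo1, a nuclease that resects broken ends and also acts in mismatch repair, rose by 0.49 ± 0.16 in K/L (limma adjusted p = 0.0246) and by 0.64 ± 0.16 in Sox4 (limma adjusted p = 0.00723). All 3 of its probe sets rose in both. Its K/L call was lost without wild type array 1 or 2 or K/L array 1 or 2, with an adjusted p of 0.0628 to 0.0825.

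Rad54l, a DNA motor protein of strand exchange, differed between the leukaemias. Its values were 9.09, 9.09 and 8.88 in K/L, 9.70, 9.50 and 9.78 in Sox4 and 8.96, 8.80 and 9.27 in wild type. The K/L arrays overlapped the wild type arrays, and the Sox4 arrays lay above both. It was 0.65 ± 0.14 higher in Sox4 than in wild type (limma adjusted p = 0.00323) and 0.64 ± 0.14 lower in K/L than in Sox4 (change -0.64, limma adjusted p = 0.00629). All 4 of its probe sets were called lower in K/L than in Sox4, at -0.84 to -0.58. Blm, the helicase lost in Bloom syndrome, was similar, with 8.37, 8.29 and 8.53 in K/L, 8.81, 8.71 and 8.82 in Sox4 and 8.39, 8.28 and 8.31 in wild type. It rose by 0.46 ± 0.10 in Sox4 (limma adjusted p = 0.00322) and was lower in K/L than in Sox4, at -0.39 ± 0.10 (limma adjusted p = 0.0132). That difference between the leukaemias was lost without Sox4 array 3 or K/L array 2 (adjusted p of 0.0512 and 0.0561). Without wild type array 3, Brca1, Brca2 and Rad51ap1 were also called between the leukaemias. They were at -0.23, -0.29 and 0.29 (limma adjusted p = 0.0466, 0.0471 and 0.0177). Their changes were the same with that array in, since it enters here only through the spread shared by all arrays. Brca2 was also called without Sox4 array 2 (-0.39, limma adjusted p = 0.0229).

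Rad52, which anneals single strands, was the 1 gene of the 9 that fell in Sox4 cells. It lay at 8.95, 8.93 and 8.88 in K/L, 8.45, 8.42 and 8.33 in Sox4 and 8.97, 9.30 and 9.26 in wild type. Sox4 arrays were below all other arrays. The change was -0.78 ± 0.11 in Sox4 (limma adjusted p = 0.000232), and Rad52 was higher in K/L than in Sox4 by 0.52 ± 0.11 (limma adjusted p = 0.00493). In K/L against wild type it was -0.26 ± 0.11 (limma adjusted p = 0.0679), and it was called there only without wild type array 1 (-0.36, limma adjusted p = 0.0137), among the leave-one-out fits. Its second probe set changed by -0.13 ± 0.15 in K/L and by -0.18 ± 0.15 in Sox4 and was not called. Between the leukaemias that probe set was at 0.05 ± 0.15 (limma adjusted p = 0.851).

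Of the 5 Fanconi genes, 1 was higher in K/L and 3 were higher in Sox4 than in wild type, with none lower. That is 20% higher in K/L, against 28.7% of all genes tested, and 60% in Sox4, against 26.6%. Fancc, a subunit of the core complex, rose by 0.55 ± 0.15 in K/L (limma adjusted p = 0.0135) and by 0.68 ± 0.15 in Sox4 (limma adjusted p = 0.00469). Averaging its 3 probe sets took the K/L change to 0.28 (limma adjusted p = 0.0584). Fancl, the ubiquitin ligase of that complex, lay at 8.64, 8.42 and 8.34 in K/L, 9.09, 9.02 and 9.13 in Sox4 and 8.61, 8.48 and 8.91 in wild type. The Sox4 arrays lay above all others. It rose by 0.41 ± 0.13 in Sox4 (limma adjusted p = 0.0237) and was lower in K/L than in Sox4, at -0.62 ± 0.13 (limma adjusted p = 0.00537). Fancd2, the protein that Fancl modifies, rose by 0.39 ± 0.12 in Sox4 (limma adjusted p = 0.0247). The Sox4 calls of Fancl and Fancd2 were lost without wild type array 1 or 2 or Sox4 array 1 or 3, with adjusted p of 0.0631 to 0.0779 and of 0.064 to 0.0853. Fanca and Fancg, also core subunits, changed by -0.22 ± 0.11 and -0.16 ± 0.09 in K/L and by -0.04 ± 0.11 and -0.08 ± 0.09 in Sox4, with no call, although Fanca was called in K/L without wild type array 1 (-0.31, limma adjusted p = 0.0477).

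The mismatch repair genes gave no call. Msh6, which reads single-base mismatches, changed by 0.18 ± 0.09 in K/L and by 0.20 ± 0.09 in Sox4 (limma adjusted p = 0.112 and 0.0851). Its leukaemic arrays all lay above its wild type arrays. Pms2, a nuclease subunit, changed by 0.16 ± 0.11 and 0.25 ± 0.11 (limma adjusted p = 0.273 and 0.0986). In Sox4, Msh6 was called without wild type array 1 (0.26, limma adjusted p = 0.0457) and Pms2 without Sox4 array 2 (0.35, limma adjusted p = 0.0395).

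Among the 6 sensing and checkpoint genes, 2 were higher and 1 lower in K/L than in wild type, and 2 were higher and 1 lower in Sox4. Higher genes were thus 33.3% in each, against 28.7% of all genes tested in K/L and 26.6% in Sox4. Lower genes were 16.7% in each, against 21.6% and 21.1%. The 2 higher genes are partners in the break sensor with Mre11. Rad50, its structural subunit, lay at 9.53, 9.53 and 9.42 in K/L, 9.24, 9.35 and 9.35 in Sox4 and 8.85, 9.09 and 8.77 in wild type. The leukaemic arrays were all above the wild type arrays. It rose by 0.59 ± 0.10 in K/L (limma adjusted p = 0.0011) and by 0.41 ± 0.10 in Sox4 (limma adjusted p = 0.00899). A second probe set of Rad50 changed by -0.40 ± 0.20 and -0.20 ± 0.20 with no call, and averaging both left 0.09 (limma adjusted p = 0.572) and 0.11 (limma adjusted p = 0.52). Nbn, which recruits Atm, rose by 0.38 ± 0.11 in K/L (limma adjusted p = 0.0143) and by 0.32 ± 0.11 in Sox4 (limma adjusted p = 0.0324). Its K/L call was lost without K/L array 1 (0.0526), and its Sox4 call without wild type array 1 or any Sox4 array (0.0643 to 0.103). Mre11a, listed here under its older symbol, rose by 0.49 ± 0.09 in K/L (limma adjusted p = 0.00138) and by 0.44 ± 0.09 in Sox4 (limma adjusted p = 0.00276).

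The checkpoint kinases did not rise. Chek2, the kinase that Atm activates, lay at 7.76, 7.84 and 8.01 in K/L, 7.82, 7.60 and 7.87 in Sox4 and 8.10, 8.21 and 8.41 in wild type. It fell in both leukaemias, by 0.37 on the log2 scale in K/L (change -0.37 ± 0.12, limma adjusted p = 0.0276) and by 0.48 in Sox4 (change -0.48 ± 0.12, limma adjusted p = 0.00848). The K/L call was lost without wild type array 3 or K/L array 1 or 2, with an adjusted p of 0.068 to 0.0976, and also after quantile normalisation or median centring. Chek1, the kinase downstream of Atr, was at 9.01, 9.02 and 8.95 in K/L, 9.32, 9.13 and 9.34 in Sox4 and 9.06, 9.27 and 9.89 in wild type. Wild type array 3 was by far the highest, and the change of -0.41 ± 0.18 in K/L did not pass (limma adjusted p = 0.0879) except without wild type array 1 (-0.59, limma adjusted p = 0.0216). A second Chek1 probe set was called lower in K/L, at -0.50 ± 0.13 (limma adjusted p = 0.00986).

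The kinases at the top of the cascade gave no call at their brightest probe sets. Atm changed by 0.16 ± 0.14 in K/L and by 0.18 ± 0.14 in Sox4, and it was called in Sox4 only without wild type array 3 (0.32, limma adjusted p = 0.0491), among the leave-one-out fits. Atr changed by -0.02 ± 0.12 in K/L and by 0.04 ± 0.12 in Sox4. Its second probe set read otherwise, with means of 6.93 in K/L, 7.79 in Sox4 and 8.63 in wild type. That probe set fell by 1.70 in K/L (difference -1.70 ± 0.23, limma adjusted p = 0.000174) and by 0.84 in Sox4 (difference -0.84 ± 0.23, limma adjusted p = 0.0119), so the size of the change and the call for Atr depend on the probe set.

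End joining held the largest change of the list. Xrcc5, which encodes the Ku80 subunit of the Ku heterodimer, lay at 4.43, 4.29 and 4.55 on the K/L arrays, 6.68, 6.69 and 6.43 on the Sox4 arrays and 7.40, 7.46 and 8.11 on the wild type arrays. The 3 groups were wholly separate, and the K/L values all lay below the 40th percentile of their arrays, which was 4.84 to 4.86. A fold against the K/L arrays is therefore given as a bound, with each K/L value set no lower than that percentile. Xrcc5 was at least 6.98-fold lower in K/L than in wild type (limma adjusted p = 5.99e-07) and at least 3.36-fold lower in K/L than in Sox4 (limma adjusted p = 1.4e-05). The fitted changes, -3.24 and -2.18, rest on the dim K/L values (means 4.42 in K/L, 6.60 in Sox4 and 7.65 in wild type). In Sox4 against wild type the change was -1.05 ± 0.18 (limma adjusted p = 0.000949), 2.08-fold lower. All 3 calls held under every alternative run in which the gene was tested. In bulk samples such as these, fewer cells of a type and less RNA per cell cannot be told apart.

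Xrcc5 is read by 1 probe set here, so no second reading bears on the fall. Its neighbours on chromosome 1 did not share a fall in K/L, apart from Fn1. Of the 3 nearest tested genes on each side, Pecr, Smarcal1, Rpl37a and Igfbp2 changed by 0.01, 0.16, 0.04 and -0.28 in K/L against wild type, with no call. Mreg was higher by 1.14 ± 0.23 (limma adjusted p = 0.00218), and Fn1 was lower, at -1.17 ± 0.38 (limma adjusted p = 0.0275). In Sox4 against wild type, Mreg was at least 1.96-fold lower (limma adjusted p = 0.000107), with all 3 Sox4 arrays below the 40th percentile, and the other 5 neighbours were not called.

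Xrcc6, which encodes the Ku70 partner, did not follow Xrcc5. It lay at 9.90, 9.72 and 9.72 in K/L, 10.08, 10.28 and 10.05 in Sox4 and 9.66, 9.60 and 9.89 in wild type. K/L overlapped wild type, and Sox4 was above both. The change was 0.06 ± 0.11 in K/L (limma adjusted p = 0.673) and 0.42 ± 0.11 in Sox4 (limma adjusted p = 0.012). Against Sox4, K/L was at -0.36 ± 0.11 (limma adjusted p = 0.04). The Sox4 call was lost without Sox4 array 2 (0.0511), and the call between the leukaemias under 9 of 19 alternatives. Among these were leaving out any of 6 arrays, wild type array 1, the 3 Sox4 arrays and K/L arrays 2 and 3 (adjusted p of 0.0505 to 0.141), centring the arrays on their medians (0.0944) and averaging the probe sets (0.151). A second, dim probe set of Xrcc6 was lower in both leukaemias, at -0.46 ± 0.12 in K/L and -0.42 ± 0.12 in Sox4 (limma adjusted p = 0.00932 and 0.0151), so the Sox4 rise rests on the brighter probe set.

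Prkdc, the catalytic subunit of the kinase that Ku recruits to broken ends, rose in both leukaemias. Its values were 8.60, 8.32 and 8.22 in K/L, 8.20, 8.24 and 8.18 in Sox4 and 7.54, 7.41 and 7.73 in wild type. All leukaemic arrays exceeded all wild type arrays. The change was 0.82 ± 0.12 in K/L (limma adjusted p = 0.000415) and 0.65 ± 0.12 in Sox4 (limma adjusted p = 0.00186). Lig4, the ligase that seals the ends, lay at 5.24, 4.95 and 5.51 in K/L, 4.92, 5.48 and 4.27 in Sox4 and 5.69, 5.86 and 6.22 in wild type. Its values sit near the low end of the arrays, and only 1 Sox4 array was above the 40th percentile. The fitted change was -1.03 ± 0.28 in Sox4 (limma adjusted p = 0.0123) and rests in part on those dim values, so no fold is given. In K/L it was -0.69 ± 0.28, which did not pass (limma adjusted p = 0.0649) but did without Sox4 array 2 or 3 (0.0232 and 0.0283). The SD of the Sox4 arrays was 0.61, the highest of the 35 genes in that group.

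**Figure D3:**
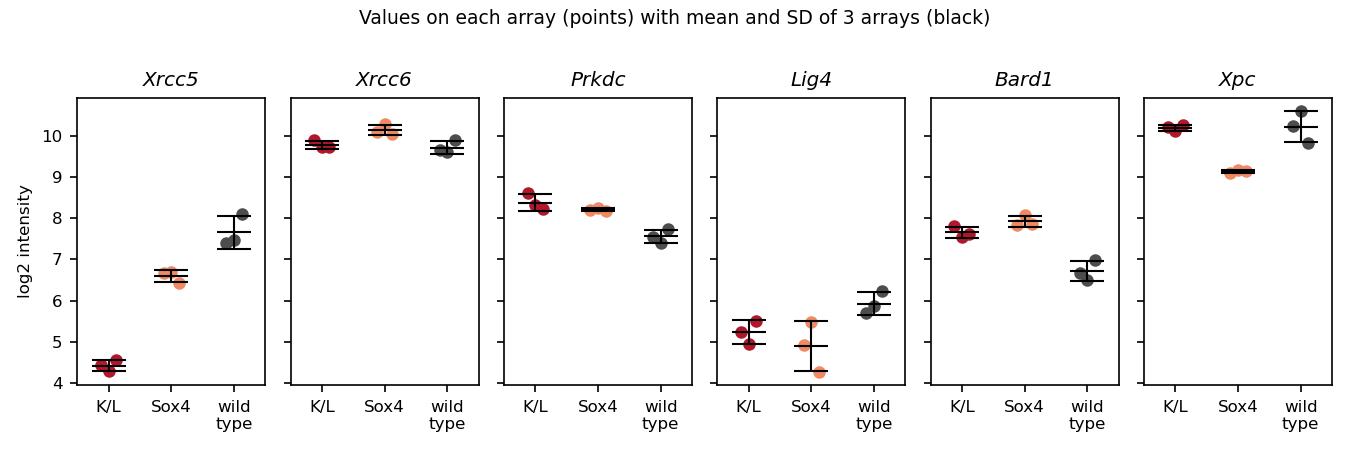
Log2 intensity (y axis) of 6 genes on each array (points), with the mean and SD of the 3 arrays of each group (black bars), K/L, Sox4 and wild type from left to right. Xrcc5 separates into 3 levels with means of 4.42, 6.60 and 7.65, while Xrcc6 stays between 9.60 and 10.28, and Xpc is near 9.13 in Sox4 only.

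Of the 5 base excision and single-strand break genes, 4 were higher in K/L and 3 were higher in Sox4 than in wild type, and none was lower. The higher genes were 80% in K/L and 60% in Sox4, against 28.7% and 26.6% of all genes tested. Ung, the glycosylase that removes uracil, lay at 11.19, 11.21 and 11.09 in K/L, 11.20, 11.16 and 11.20 in Sox4 and 10.77, 10.78 and 10.74 in wild type. Every leukaemic array was above every wild type array, with little spread. It rose by 0.40 ± 0.08 in K/L (limma adjusted p = 0.0027) and by 0.42 ± 0.08 in Sox4 (limma adjusted p = 0.00209). Parp1, which marks strand breaks with poly(ADP-ribose), was at 10.29, 10.02 and 10.11 in K/L, 10.21, 10.25 and 10.33 in Sox4 and 9.66, 9.65 and 9.33 in wild type. It rose by 0.60 ± 0.12 (limma adjusted p = 0.00228) and by 0.72 ± 0.12 (limma adjusted p = 0.000788), with 3 of its 4 probe sets called higher in each. Xrcc1, the scaffold of single-strand break repair, rose by 0.38 ± 0.10 in K/L (limma adjusted p = 0.0122) and by 0.49 ± 0.10 in Sox4 (limma adjusted p = 0.00335).

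Parp2, a second break-sensing polymerase, changed by -0.07 ± 0.09 in K/L and by 0.17 ± 0.09 in Sox4, with no call. Between the leukaemias it was at -0.23 ± 0.09 (limma adjusted p = 0.0769), called without wild type array 3 (0.0454). Ogg1, the glycosylase for oxidised guanine, lay at 7.33, 7.28 and 7.20 in K/L, 6.85, 6.99 and 7.02 in Sox4 and 7.04, 6.96 and 6.89 in wild type. The K/L arrays were above all others. It rose by 0.31 ± 0.09 in K/L against wild type (limma adjusted p = 0.0197) and was higher in K/L than in Sox4 by 0.32 ± 0.09 (limma adjusted p = 0.0275). The first call was lost without K/L array 1 or 2 (0.0553 to 0.0721), and the second without Sox4 array 1 or 2 or K/L array 1 or 2 (0.0592 to 0.104). Its second probe set gave larger differences in the same directions, 1.29 ± 0.11 against wild type (limma adjusted p = 9.35e-06) and 0.84 ± 0.11 against Sox4 (limma adjusted p = 0.000327). In Sox4 against wild type the brighter probe set of Ogg1 was at -0.01 ± 0.09, and the second was higher by 0.44 ± 0.11 (limma adjusted p = 0.00763).

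Nucleotide excision genes moved in both directions. Ercc1, a subunit of the nuclease that cuts 5′ of a lesion, lay at 9.30, 9.49 and 9.41 in K/L, 9.15, 9.27 and 9.22 in Sox4 and 8.63, 8.77 and 8.69 in wild type. The groups did not overlap in any pair. It rose by 0.70 ± 0.09 in K/L (limma adjusted p = 0.000173) and by 0.51 ± 0.09 in Sox4 (limma adjusted p = 0.00131). The mean over the 4 probe sets of Ercc1 took the change to 0.22 in K/L (limma adjusted p = 0.0417) and to 0.20 in Sox4 (limma adjusted p = 0.0601). Its second brightest probe set was at 0.29 ± 0.11 in K/L and 0.28 ± 0.11 in Sox4, with no call (limma adjusted p = 0.0536 and 0.0624). Xpa, which verifies the lesion, changed by -0.04 ± 0.16 in K/L and by -0.22 ± 0.16 in Sox4 at its brightest probe set. Its 2 other probe sets were lower in K/L, at -1.15 ± 0.12 and -1.30 ± 0.18 (limma adjusted p = 3.46e-05 and 0.000199). In Sox4 the first of these was lower, at -0.49 ± 0.12 (limma adjusted p = 0.0073), and the second was at -0.31 ± 0.18 with no call, so the size of the Xpa change differs between its probe sets.

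The lesion finders Xpc and Ddb2 were low in Sox4 cells. Xpc, which recognises helix distortion across the genome, lay at 10.21, 10.12 and 10.25 in K/L, 9.09, 9.16 and 9.15 in Sox4 and 10.24, 10.59 and 9.83 in wild type. The K/L arrays fell inside the wild type range, and the Sox4 arrays were below all others. The change was -1.09 ± 0.16 in Sox4 (limma adjusted p = 0.000436), 2.12-fold lower, and -0.03 ± 0.16 in K/L (limma adjusted p = 0.904). Xpc was higher in K/L than in Sox4 by 1.06 ± 0.16 (limma adjusted p = 0.000961). Ddb2, the ultraviolet damage sensor, was at 9.02, 8.97 and 8.90 in K/L, 8.59, 8.42 and 8.43 in Sox4 and 9.25, 9.09 and 9.45 in wild type. It fell by 0.79 in Sox4 (change -0.79 ± 0.11, limma adjusted p = 0.000296) and by 0.30 in K/L (change -0.30 ± 0.11, limma adjusted p = 0.0474). Between the leukaemias Ddb2 was higher in K/L by 0.49 ± 0.11 (limma adjusted p = 0.00909).

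The K/L call of Ddb2 was lost under 13 of 19 alternatives, more than any other of the 15. It was lost without any 1 of 8 arrays, all but wild type array 2, with an adjusted p of 0.056 to 0.132. The second Ddb2 probe set was lower in both leukaemias, at -0.91 ± 0.13 in K/L (limma adjusted p = 0.000244) and with means of 7.84 in Sox4 and 8.85 in wild type (limma adjusted p = 0.000145). It did not differ between them beyond its spread, at 0.09 ± 0.13 (limma adjusted p = 0.651).

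**Figure D4:**
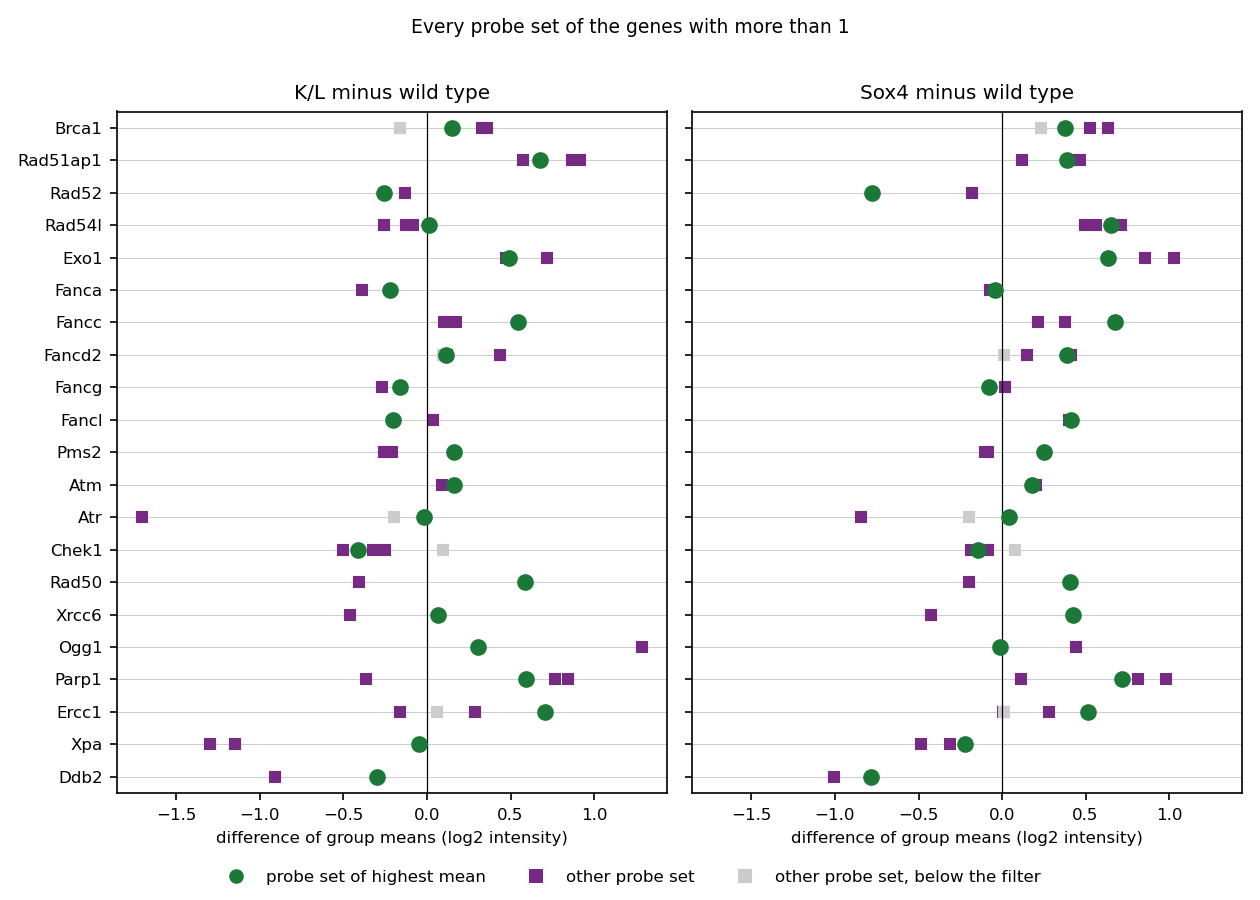
Difference of group means in log2 intensity (x axis) for every probe set of the genes that have more than 1, for K/L minus wild type (left) and Sox4 minus wild type (right). Circles are the probe set of highest mean, purple squares other tested probe sets and grey squares those below the filter. The probe sets of Rad51ap1 and Exo1 lie on 1 side of 0, and those of Atr, Xpa, Rad50 and Xrcc6 spread apart.

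The members had 76 probe sets, of which 71 passed the filter, and 14 genes had only 1. Among the called genes with several, another probe set was called in the same direction for 5 of 8 in K/L against wild type, 7 of 13 in Sox4 against wild type and 2 of 6 in K/L against Sox4. A call in the opposite direction arose for 1 gene, Xrcc6 in Sox4 against wild type.

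Other repair genes, taken from lists by route, were set beside the members. Of 96 tested, 37 were higher and 21 lower in K/L than in wild type, with a median of 0.18, and 30 were higher and 14 lower in Sox4, with a median of 0.12. In K/L these were 38.5% higher and 21.9% lower, against 28.7% and 21.6% of all genes tested. In Sox4 they were 31.2% and 14.6%, against 26.6% and 21.1%. The same shares of all genes apply beside each list by route that follows. The other genes of recombination and the Fanconi pathway held 15 of 24 higher and 1 lower in K/L, and 11 higher and 0 lower in Sox4. Gen1, which cuts Holliday junctions, rose by 1.80 ± 0.17 in K/L (limma adjusted p = 1.84e-05) and by 1.95 ± 0.17 in Sox4 (limma adjusted p = 1.18e-05). Xrcc3, which works with Rad51c, rose by 1.50 ± 0.10 in K/L (limma adjusted p = 2.43e-06) and by 0.94 ± 0.10 in Sox4 (limma adjusted p = 5.4e-05). Rmi2, a partner of Blm, rose by 1.32 ± 0.12 (limma adjusted p = 1.77e-05) and by 1.42 ± 0.12 (limma adjusted p = 1.18e-05).

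The other end joining genes were 3 higher and 2 lower of 9 in K/L, and 2 higher and 0 lower in Sox4. Poll, a gap-filling polymerase, rose by 1.20 ± 0.15 in K/L (limma adjusted p = 0.000143), and Xrcc4, the Lig4 partner, changed by -0.13 ± 0.13. Other base excision genes were 5 higher and 5 lower of 16 in each leukaemia. Apex1, the main endonuclease for abasic sites, fell by 0.74 in K/L (change -0.74 ± 0.08, limma adjusted p = 7.27e-05) and by 0.73 in Sox4 (change -0.73 ± 0.08, limma adjusted p = 7.99e-05). Polb, which fills the gap, fell by 0.72 in K/L (change -0.72 ± 0.12, limma adjusted p = 0.000824) and by 0.89 in Sox4 (change -0.89 ± 0.12, limma adjusted p = 0.00023). Apex1 and Polb are among the 5 lower genes of that list. Its changes ran from -0.86 to 1.71 in K/L and from -0.89 to 1.09 in Sox4.

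Of 3 other mismatch genes tested, 2 were higher in K/L and 0 in Sox4, among them Mlh3 at 0.81 ± 0.11 in K/L (limma adjusted p = 0.000212). Other nucleotide excision genes were 3 higher and 1 lower of 14 in K/L, and 3 higher and 2 lower in Sox4. The lower gene in K/L was Ercc6, the sensor of stalled transcription lost in Cockayne syndrome, with means of 4.49 in K/L, 4.68 in Sox4 and 5.62 in wild type. It was above the 40th percentile on 0 K/L, 0 Sox4 and 3 wild type arrays, and so was tested through the wild type arrays alone. With leukaemic values set no lower than that percentile, it was at least 1.71-fold lower in K/L (limma adjusted p = 0.000186) and at least 1.62-fold lower in Sox4 (limma adjusted p = 0.000624). Other checkpoint genes were 6 higher and 7 lower of 18 in K/L, and 8 higher and 2 lower in Sox4. Mdc1, the adaptor that reads phosphorylated histone H2ax, rose by 1.32 ± 0.21 in K/L (limma adjusted p = 0.000615) and by 1.62 ± 0.21 in Sox4 (limma adjusted p = 0.000174). Of 12 direct reversal and translesion genes, 3 were higher and 5 lower in K/L, with a median of 0.05, and 1 was higher and 5 lower in Sox4, with a median of -0.28. Mad2l2, a subunit of polymerase zeta, fell by 0.89 in K/L (change -0.89 ± 0.10, limma adjusted p = 6.11e-05) and by 0.99 in Sox4 (change -0.99 ± 0.10, limma adjusted p = 3.32e-05).

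Many repair genes rise with the cell cycle, so replication and mitosis genes were read alongside. DNA replication genes were 10 higher and 1 lower of 24 in K/L, with a median of 0.17, and 13 higher and 0 lower in Sox4, with a median of 0.35. That is 41.7% higher in K/L and 54.2% in Sox4, against 28.7% and 26.6% of all genes tested. Mitosis genes were 4 higher and 3 lower of 15 in K/L, with a median of 0.05, and 10 higher and 0 lower in Sox4, with a median of 0.45. In K/L these were 26.7% higher and 20% lower, near the 28.7% and 21.6% of all genes tested. In Sox4 66.7% were higher, against 26.6%. Between the leukaemias, 11 of the 15 mitosis genes were lower in K/L than in Sox4, with a median of -0.41. That is 73.3%, against 14.1% of all genes tested. Of the 24 replication genes, 2 were lower (8.33%) and 0 higher in K/L than in Sox4, with a median of -0.16. Mki67, a proliferation marker, changed by 0.85 ± 0.16 in K/L (limma adjusted p = 0.00142) and by 1.35 ± 0.16 in Sox4 (limma adjusted p = 7.98e-05). Wild type array 3 was the highest wild type array for 15 of the 24 replication genes (62.5%) and for 5 of the 15 mitosis genes (33.3%), against 34.6% of all genes tested. The part of the cell cycle in the repair genes was not tested.

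Markers of other cell types also differed between the groups. The summed intensity of 8 late neutrophil markers was 231 to 366 on K/L, 3917 to 4162 on Sox4 and 15203 to 20621 on wild type arrays, with 2 of the 8, Cd177 and Mmp8, below the 40th percentile on all K/L arrays. Such a sum weighs bright markers most. Of the 8, 5 were called higher and 3 lower in Sox4 than in wild type (median log2 change 0.58, from -2.62 to 2.33). These were 62.5% and 37.5%, against 26.6% and 21.1% of all genes tested. In K/L against wild type, 0 were called higher and 4 lower (50%, against 21.6%). The summed intensity of 6 megakaryocyte markers was 219 to 226 on K/L, 1327 to 2122 on Sox4 and 279 to 335 on wild type arrays, with 3 of the 6 low on all arrays in K/L, 1 in Sox4 and 2 in wild type, and Ppbp low in every group. That of 6 monocyte and macrophage markers was 2490 to 2932, 6366 to 6697 and 1466 to 1634 in K/L, Sox4 and wild type, with 0 of 6 low in any group. That of 7 mast cell and eosinophil markers was 5316 to 6031, 1701 to 2446 and 927 to 1330, with 3, 1 and 3 of 7 low. Tpsb2 was low in every group. That of 6 erythroid markers was 167 to 173, 455 to 529 and 161 to 196, with 4, 2 and 3 of 6 low and Epor and Slc4a1 low in every group. The 6 B cell markers summed to 1122 to 1252, 1111 to 1273 and 397 to 544, with 3, 3 and 2 of 6 low and Ms4a1 and Ebf1 low in every group, and the 5 T and NK cell markers to 1888 to 1997, 2026 to 2411 and 2012 to 2317, with 0 of 5 low. Such sums hide markers that go the other way. In Sox4 against wild type, 5 of the 6 monocyte and macrophage markers were higher and 1 lower (83.3% and 16.7%). Their changes ran from -3.22 to 4.03. Of 5 tested mast cell and eosinophil markers, 2 were higher and 1 lower there (40% and 20%). Of 4 tested B cell markers, 2 were higher and 1 lower (50% and 25%). All genes tested gave 26.6% and 21.1%. The part of these cells in the repair gene results was not tested.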

How the data were processed

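Per the labels' protocols, 5 ug of total RNA from sorted FrII cells gave biotinylated cRNA for Affymetrix arrays. The authors deposited a table of linear intensity values for 45101 probe sets with a floor of 8 (3 on the log2 scale). The submitters' processing notes name RMA. The sources used here do not give its version or any further scaling of the arrays. Array medians of the deposited intensity were 5.43 to 5.55 after log2, and the floor held 4.86 to 5.57 percent of an array. Depth does not apply to arrays, and 3 arrays a group limit the precision.

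Values were log2 transformed and not rescaled. Gene symbols came from GEO's platform annotation, dated 2016. A gene needed exactly 1 symbol (34958 probe sets; 932 had several and 9211 none) and was tested if at least 3 of 9 arrays lay above the 40th percentile of the array. The fit was lmFit and eBayes of limma 3.58.1 in R 4.3.3 with 3 group means, no covariates, and 6 residual and 3.64 prior degrees of freedom. Calls used a Benjamini-Hochberg adjusted p under 0.05 over all genes. Single probe sets were tested in a second fit over 24036 probe sets. A fold given as "at least", a reading added after the data were seen, raises each array of the dim group to its own 40th percentile where it lies below it. The procedure was tested on simulated data. Exact permutation of 3 against 3 arrays cannot give a two-sided p below 0.1, so no such test was used. Upstream sequences, chromosomes and gene order came from RefSeq tables of build GRCm38.p6.

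The members and all gene lists were chosen with earlier results of these data known. All 36 members were to be named, those called with a change of at least 1 on the log2 scale and some others sample by sample, and at most 4 genes with the smallest p from any other list and comparison, with Xrcc4, Mre11a, Cdkn1a, the neighbours of Xrcc5 and the dim cell type markers added after their values were seen. Same-numbered arrays of different groups correlated in their deviations at -0.022 to 0.078 (9 pairs), and the titles say nothing of shared days or litters. The numbers were not used as pairs in the main fit. Alternatives were the mean of all probe sets, _x_at probe sets last, no filter or a stricter one, quantile normalisation, median centring, only the groups compared, array weights, an intensity trend with robust prior, a replicate block, and leaving out each array.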

Additional observations from a re-analysis of the deposited data

Results flagged for a closer look

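For 9 of the 35 genes the K/L and Sox4 effects against wild type differed when tested directly, as K/L minus Sox4 in the limma fit (adjusted p under 0.05 over all genes). That is 25.7% of the list, no more than the 28.8% of all genes tested. Since both effects use the same wild type arrays, this difference is the K/L arrays against the Sox4 arrays, 3 of each. Its p-value rests on a spread shared by all 9 arrays, to which the wild type arrays add most. The median SD over all genes tested was 0.19 in wild type, 0.11 in K/L and 0.11 in Sox4. Xrcc5 differed by -2.18, Rad54l by -0.64, Fancl by -0.62, Blm by -0.39 and Xrcc6 by -0.36, all lower in K/L. The Xrcc5 value is fitted on K/L levels below the 40th percentile of the array, and its bound is at least 3.36-fold. Xpc differed by 1.06, Rad52 by 0.52, Ddb2 by 0.49 and Ogg1 by 0.32, all higher in K/L. The second probe sets of Rad52 and Ddb2 were at 0.05 ± 0.15 and 0.09 ± 0.13 (limma adjusted p = 0.851 and 0.651). Another probe set was called in the same direction for 2 of the 6 genes with several. In each of the 9 genes the 3 K/L arrays lay on 1 side of the 3 Sox4 arrays. The 9 were picked by the test on these same arrays, so that separation adds no support, and its share over all genes was not counted. The 3' to 5' Gapdh ratio and the mitosis genes moved between the same groups, beside all 9 genes whichever their direction, and their part was not tested. The Gapdh ratio was 1.93 to 2.01 in K/L and 2.22 to 2.44 in Sox4, while the actin ratio overlapped. Of 15 mitosis genes, 11 were lower in K/L (73.3%, against 14.1% of all genes tested). Of 24 DNA replication genes, 2 were lower (8.33%) and 0 higher in K/L, with a median of -0.16.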

How the results depend on the processing

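Over 19 alternatives, 8 of the 15 calls in K/L against wild type, 17 of 24 in Sox4 against wild type and 5 of 9 in K/L against Sox4 held wherever the gene was tested. The count of genes lower in K/L than in wild type, 3 as reported, was 5 when a gene's probe sets were averaged, and 1 with quantile normalisation, with median centring and with array weights. Leaving out 1 array gave 1 to 5 (5 without wild type array 1, and 1 without wild type array 3, K/L array 1 or K/L array 2). The count lower in K/L than in Sox4, 5 as reported, was 3 to 8 when 1 array was left out (8 without wild type array 3, 3 without Sox4 array 3 or K/L array 2). The other counts stayed within 1.5 times: leaving out 1 array gave 9 to 13 higher in K/L than in wild type, 14 to 19 higher and 6 lower in Sox4 than in wild type, and 3 to 5 higher in K/L than in Sox4. With the mean of all probe sets, 4 directions turned: Atr in Sox4 against wild type was -0.33 (limma adjusted p = 0.0348), Xrcc6 there -0.0002 (0.999), Ogg1 there 0.21 (0.0418), and Xpa in K/L against Sox4 -0.49 (0.00738). In these, probe sets of 1 gene disagree, and the cause was not tested. That alternative also ended the calls of Rad50 in both comparisons with wild type, Fancc in K/L, Fancd2 and Ercc1 in Sox4, and Rad52 and Xrcc6 between the leukaemias. With the replicate number as a block the counts were 12 higher and 2 lower in K/L, 17 higher and 6 lower in Sox4, and 3 higher and 4 lower in K/L against Sox4, and the block ended 4 calls, Ddb2 in K/L (limma adjusted p = 0.0628), Nbn in Sox4 (0.0573), and Xrcc6 (0.0747) and Ogg1 (0.0535) between the leukaemias. None of the 9 same-number correlations passed 0.1, which cannot show whether same-numbered arrays shared a day or litter. Genes near the floor, Xrcc5 in K/L and Lig4 in Sox4, are limited by signal over background.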

Other observations

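Genes that p53 activates were read from a separate list. Of 16 tested, 7 were higher and 5 lower in K/L than in wild type, and 4 higher and 5 lower in Sox4 (medians 0.31 and 0.03). In K/L that is 43.8% higher and 31.2% lower, against 28.7% and 21.6% of all genes tested, and in Sox4 25% and 31.2%, against 26.6% and 21.1%. Cdkn1a, the p21 inhibitor of cyclin-dependent kinases, was higher in K/L by 0.79 ± 0.23 (limma adjusted p = 0.0163) and was at -0.01 ± 0.23 in Sox4. Zmat3, an RNA-binding p53 target, rose by 1.07 ± 0.09 in K/L (limma adjusted p = 7.23e-06) and by 0.55 ± 0.09 in Sox4 (limma adjusted p = 0.000529). Gadd45a, a stress-response gene, was lower in both, at -1.25 ± 0.10 in K/L (limma adjusted p = 7.14e-06) and -1.16 ± 0.10 in Sox4 (limma adjusted p = 1.2e-05). In Sox4 cells the death-associated targets Perp, Pmaip1 and Trp53inp1 were lower, at -3.82 ± 0.23, -3.31 ± 0.13 and -2.92 ± 0.12 (limma adjusted p = 1.21e-06, 7.12e-08 and 1.32e-07). Pmaip1 and Trp53inp1 were also lower in K/L, at -0.84 ± 0.13 and -0.99 ± 0.12 (limma adjusted p = 0.000451 and 0.000137), while Perp was at 0.55 ± 0.23 there (limma adjusted p = 0.074). Ddb2 and Xpc were not on that p53 list and were described above.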
